A study of Mus musculus with 12 samples.

Results

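Mitochondrial ribosomal protein genes were taken as the entries of the deposited expression table whose symbol begins with Mrpl or Mrps followed by a number, pseudogenes left out. There were 78 of them among 19439 entries, 49 named for the large subunit (Mrpl) and 29 for the small subunit (Mrps). All 78 passed the filter on low values. The mitochondrial ribosome, or mitoribosome, translates the few messages of the mitochondrial genome, which encode core subunits of the respiratory chain and of ATP synthase. In animals its ribosomal RNAs come from mitochondrial DNA, whereas its proteins are encoded in the nucleus, made in the cytosol and imported. The small subunit binds the message and holds the decoding site, and the large subunit forms the peptide bond and passes the new chain through an exit tunnel towards the inner membrane.

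The libraries came from 3T3 mouse embryonic fibroblasts, cells made immortal by serial passage, and each of the 4 groups held 3 libraries. The groups were p53-null cells without glutamine for 18 h, p53-null cells with 2 mM glutamine, wild-type (WT) cells without glutamine for 18 h, and WT cells with 2 mM glutamine. The lines were kept in DMEM with 25 mM glucose and 2 mM glutamine before the 18 h in DMEM with or without glutamine, and the p53-null line is labelled p53 -/-. Medium with 2 mM glutamine is called complete below and medium without it glutamine-free. There was 1 line per genotype, so a difference between genotypes is a difference between these 2 lines. Whether the 3 libraries of a group were separate cultures is not given, so p-values cover the spread between libraries alone and that spread may be technical. Values are RPKM, reads scaled to gene length and library depth, which makes levels comparable between genes of different length. Log2 changes were computed from log2(RPKM + 1) and are given with a standard error (SE), and a gene is called higher or lower at a limma p below 0.05 after Benjamini-Hochberg adjustment over 11461 tested entries.

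Deposited RPKM summed to 284426 to 319735 per library, and the 12 pairs of libraries within groups had r of 0.999 to 0.9993 over genes. Read totals are not in the table and were not recovered. Trp53, the gene in the genotype labels, was 33.9, 34.6 and 35.2 RPKM in p53-null glutamine-free libraries, 27.9, 29 and 29.6 RPKM in p53-null complete, 109, 112 and 114 RPKM in WT glutamine-free and 58.7, 57.8 and 59 RPKM in WT complete libraries. Every p53-null library was below every WT library of the same medium (exact two-sided permutation p = 0.1 in each medium, the smallest that 3 against 3 libraries allow). The transcript was still detected in the p53-null libraries, and the reason was not tested. Of 12 fibroblast markers, 10 reached 1 RPKM in each group and Thy1 and Lum were near 0. Their sum ran from 1444 to 1469 RPKM in p53-null glutamine-free, 2608 to 2647 in p53-null complete, 1032 to 1039 in WT glutamine-free and 4169 to 4189 in WT complete libraries. Epithelial markers, chiefly Krt18 and Krt19, summed to 82.5 to 84.7 RPKM in p53-null glutamine-free and 77.3 to 78.6 RPKM in p53-null complete libraries, against at most 0.252 RPKM in WT libraries. Of the others in the table, Krt8 averaged 0.30 and 0.76 RPKM in these p53-null groups. Epcam, Cdh1 and Krt14 averaged at most 0.10 RPKM in any group. Neural and muscle markers summed to at most 3.14 RPKM in p53-null libraries, against 21.3 to 21.7 RPKM in WT glutamine-free and 39.2 to 39.9 RPKM in WT complete libraries. Tubb3, Stmn2 and Map2 were the higher ones in WT. Des went the other way, at 1.18 and 1.33 RPKM in p53-null glutamine-free and complete libraries, against at most 0.04 RPKM in WT. Blood and endothelial markers summed to at most 7.68 and 1.90 RPKM in any library. The part of these markers in the results below was not tested, and in bulk samples fewer cells of a type and less RNA per cell cannot be told apart.

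Start regions of 11 genes named in the comparisons below are printed. The first 7 (Mrps26, Mrpl3, Mrps22, Mrpl9, Mrpl49, Mrpl14 and Mrpl36) were chosen because they hold a match to the letters searched, and they do not show how often leading genes do. Mrpl21, Mrps18b, Mrps2 and Mrpl23, which lead or stand next to the leading gene in a comparison, hold none and are printed beside them. Each is 150 bases of the gene's strand, 120 before and 30 from the annotated start, taken from RefSeq on GRCm38.p6, 5′ to 3′. Capitals mark matches to the searched letters of NRF1 (its GC-rich palindrome), ETS factors (CCGGAAGT) or YY1 (AAGATGGC) on either strand. Nuclear respiratory factor 1 (NRF1), the ETS factor GABP (nuclear respiratory factor 2) and YY1 are known regulators of nuclear genes for mitochondrial proteins.
Mrps26 (chr2:130563637-130563786, plus strand): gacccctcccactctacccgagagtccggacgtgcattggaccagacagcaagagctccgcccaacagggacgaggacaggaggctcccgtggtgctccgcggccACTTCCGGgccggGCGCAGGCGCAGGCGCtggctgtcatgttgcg
Mrpl3 (chr9:105053148-105053297, plus strand): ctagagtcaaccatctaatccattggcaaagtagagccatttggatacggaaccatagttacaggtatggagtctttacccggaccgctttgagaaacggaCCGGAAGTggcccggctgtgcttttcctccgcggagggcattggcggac
Mrps22 (chr9:98601650-98601799, minus strand): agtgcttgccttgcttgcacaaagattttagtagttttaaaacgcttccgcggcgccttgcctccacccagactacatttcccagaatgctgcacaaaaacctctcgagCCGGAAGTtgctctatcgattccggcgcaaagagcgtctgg
Mrpl9 (chr3:94443216-94443365, plus strand): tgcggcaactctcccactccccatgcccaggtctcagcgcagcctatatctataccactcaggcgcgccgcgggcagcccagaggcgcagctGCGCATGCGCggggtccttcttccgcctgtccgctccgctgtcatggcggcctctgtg
Mrpl49 (chr19:6057726-6057875, minus strand): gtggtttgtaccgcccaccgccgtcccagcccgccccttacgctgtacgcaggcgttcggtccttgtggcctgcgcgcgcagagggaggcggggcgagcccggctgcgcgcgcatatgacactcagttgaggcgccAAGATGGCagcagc
Mrpl14 (chr17:45686229-45686378, plus strand): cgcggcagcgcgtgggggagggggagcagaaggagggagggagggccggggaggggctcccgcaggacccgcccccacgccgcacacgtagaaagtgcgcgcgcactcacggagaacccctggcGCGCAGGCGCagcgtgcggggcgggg
Mrpl36 (chr13:73330889-73331038, plus strand): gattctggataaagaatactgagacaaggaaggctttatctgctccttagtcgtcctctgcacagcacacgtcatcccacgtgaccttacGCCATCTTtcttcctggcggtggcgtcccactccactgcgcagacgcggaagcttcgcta
Mrpl21 (chr19:3282922-3283071, plus strand): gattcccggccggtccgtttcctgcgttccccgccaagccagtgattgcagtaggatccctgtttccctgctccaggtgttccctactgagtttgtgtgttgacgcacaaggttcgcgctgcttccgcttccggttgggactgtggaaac
Mrps18b (chr17:35916411-35916560, minus strand): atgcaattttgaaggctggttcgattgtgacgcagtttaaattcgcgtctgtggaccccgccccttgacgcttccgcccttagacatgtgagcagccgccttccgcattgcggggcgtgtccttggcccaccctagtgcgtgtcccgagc
Mrps2 (chr2:28467946-28468095, plus strand): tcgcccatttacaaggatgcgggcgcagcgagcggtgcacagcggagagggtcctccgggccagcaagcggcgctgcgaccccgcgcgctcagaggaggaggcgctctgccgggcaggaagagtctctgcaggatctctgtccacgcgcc
Mrpl23 (chr7:142532912-142533061, plus strand): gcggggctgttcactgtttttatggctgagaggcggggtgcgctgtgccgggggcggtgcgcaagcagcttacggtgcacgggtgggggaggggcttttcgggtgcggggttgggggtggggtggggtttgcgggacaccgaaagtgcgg

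Of the 78 genes, 69 had at least 1 RefSeq window of 250 bases before to 50 after a start, and the letters were searched there on both strands. A gene counted if any of its windows held the letters. Shares of all 32851 windows are per window, so they are not the same measure as the shares of genes. The NRF1 letters stood in 13 of 69 genes (18.8%), against 12.3% of the 8849 tested genes with a window and 4.60% of all 32851 windows. For the ETS letters it was 12 of 69 (17.4%), against 9.75% and 3.89%. The YY1 letters also stood in 12 of 69 (17.4%), against 5.66% and 2.75%, Mrpl49 and Mrpl36 among them. At least 1 of the 3 was found in 34 of 69 genes (49.3%), against 25.2% of the tested genes with a window. The E-box CACGTG, which Myc and the MiT/TFE factors recognise, was in 5 of 69 (7.25%), against 12.2% and 7.15%. The composite C/EBP-ATF site TGATGCAA, a known target of ATF4 in the amino acid response, was in 0 of 69, against 0.723% and 0.895%. On withdrawal, the 12 genes with the YY1 letters had 6 called higher and 2 lower in p53-null cells (median log2 change 0.11), and 10 higher and 2 lower in WT (median 0.69). The 13 with the NRF1 letters had 7 higher and 3 lower in p53-null cells (median 0.092), and 7 and 6 in WT (median 0.26). The 12 with the ETS letters had 7 higher and 3 lower in p53-null cells (median 0.11), and 7 and 2 in WT (median 0.21). The 5 with the E-box had 3 higher and 1 lower in p53-null cells (median 0.11), and 5 and 0 in WT (median 0.59). Of all tested entries, 50.0% were higher and 32.0% lower in p53-null cells, and 46.0% and 44.0% in WT. Between the lines in glutamine-free medium, 3 of the 12 genes with the YY1 letters were higher in p53-null cells and 8 lower. For the ETS letters it was 2 and 9 of 12, for the NRF1 letters 5 and 6 of 13, and for the E-box 2 and 3 of 5. All 78 members had 31 higher and 42 lower, beside 51.4% and 40.0% of all tested entries. A match is a description of letters and not a site shown to be bound.

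As a group the 78 genes held 0.835 ± 0.00418% of all RPKM in p53-null glutamine-free libraries, 0.787 ± 0.00231% in p53-null complete, 0.798 ± 0.00546% in WT glutamine-free and 0.636 ± 0.00317% in WT complete libraries (SD, n = 3). Each WT complete library was below every library of the other groups. Large subunit RPKM summed to 1475 ± 18.3 in p53-null glutamine-free, 1406 ± 8.15 in p53-null complete, 1642 ± 28.0 in WT glutamine-free and 1269 ± 7.03 in WT complete libraries. Small subunit RPKM summed to 919 ± 9.59 in p53-null glutamine-free, 889 ± 1.67 in p53-null complete, 894 ± 8.46 in WT glutamine-free and 728 ± 8.46 in WT complete libraries. Small subunit sums of the p53-null complete and WT glutamine-free groups overlapped, and every other pair of groups was separate for both subunits. The ratio of the sums, large over small, was 1.605 ± 0.00964 in p53-null glutamine-free and 1.58 ± 0.00761 in p53-null complete libraries, against 1.84 ± 0.0197 in WT glutamine-free and 1.74 ± 0.0122 in WT complete libraries. Every WT library had a higher ratio of sums than every p53-null library. With each subunit's median gene in place of its sum, the ratio was 0.948 in p53-null glutamine-free, 0.879 in p53-null complete, 0.975 in WT glutamine-free and 0.977 in WT complete libraries. By medians the lines were separate in complete medium and overlapped in glutamine-free medium. The ratio ran from 0.937 to 0.956 in p53-null glutamine-free and from 0.943 to 0.994 in WT glutamine-free libraries. It ran from 0.872 to 0.885 in p53-null complete and from 0.956 to 1.02 in WT complete libraries. No test was made over these sums, since the genes were chosen with earlier results known.

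**Figure D1:**
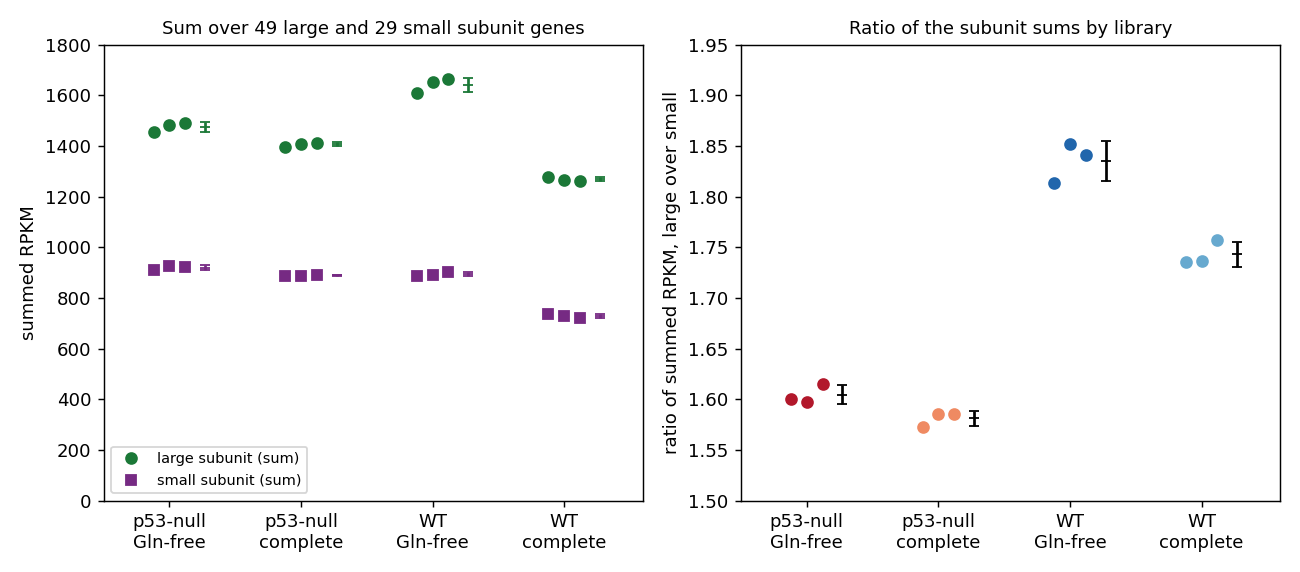
Summed RPKM of the 49 large and 29 small subunit genes (left) and their ratio (right, axis from 1.5) in each of the 12 libraries; points are libraries, bars are mean ± SD of 3. The WT complete libraries have the lowest sums of both subunits, and the 6 WT libraries have higher ratios, from 1.74 to 1.85, than the 6 p53-null libraries, from 1.57 to 1.62.

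Levels per gene spanned more than the changes between groups. Mrpl13, Mrpl12 and Mrpl33 had the highest mean levels of the large subunit. Mrpl13, a core protein of the large subunit with a bacterial counterpart, was at 87.3 ± 0.279 RPKM in p53-null glutamine-free, 74.9 ± 1.87 in p53-null complete, 131 ± 0.327 in WT glutamine-free and 78.5 ± 0.505 in WT complete libraries. Mrpl12, the L7/L12 stalk protein that helps translation factors to bind, was at 90.3 ± 0.601 RPKM in p53-null glutamine-free, 84.6 ± 2.28 in p53-null complete, 81.7 ± 3.35 in WT glutamine-free and 59 ± 0.923 in WT complete libraries. At the other end were Mrpl17, Mrpl41 and Mrpl1, of which Mrpl17, at the exit tunnel, was at 2.44 ± 0.0990 RPKM in p53-null glutamine-free, 3.58 ± 0.114 in p53-null complete, 4.01 ± 0.258 in WT glutamine-free and 4.77 ± 0.0287 in WT complete libraries. Mrps21, Mrps18b and Mrps18a were the highest of the small subunit and Mrps25, Mrps11 and Mrps14 the lowest. Mrps21, which has a bacterial counterpart, was at 44.6 ± 1.01 RPKM in p53-null glutamine-free, 53.3 ± 1.27 in p53-null complete, 65.7 ± 2.63 in WT glutamine-free and 82.7 ± 3.55 in WT complete libraries, and Mrps25 at 9.005 ± 0.236 RPKM in p53-null glutamine-free, 7.84 ± 0.380 in p53-null complete, 7.46 ± 0.249 in WT glutamine-free and 6.19 ± 0.0608 in WT complete libraries. Within a group the median coefficient of variation of a gene was 2.40 to 3.38%, and the largest was 12.9% for Mrpl23 in p53-null glutamine-free libraries.

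Glutamine withdrawal in WT cells was accompanied by higher levels of most of these genes, in both subunits. Of the 78, 50 were higher, against 46.0% of all tested entries, 19 were lower, against 44.0%, and 9 were not called. By subunit, 32 of 49 large subunit genes rose and 10 fell (median log2 change 0.34), and 18 of 29 small subunit genes rose and 9 fell (median 0.29), beside a median of 0.011 over all tested entries. At least 1.5-fold, 30 rose, or 38.5% against 21.8% of all tested entries, and 2 fell, or 2.56% against 23.0%. At least 2-fold, 5 rose, or 6.41% against 9.75%, and 0 fell, against 12.9%.

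Mrpl21, a large subunit protein with a bacterial counterpart (chromosome 19, 3282901 to 3292837, plus strand, GENCODE M21 on GRCm38), had 34.2, 33.9 and 34.5 RPKM in WT glutamine-free libraries, against 13.3, 13.1 and 12.8 RPKM in WT complete libraries. The 2 groups were far apart, with a log2 change of 1.32 ± 0.024 (SE, limma adjusted p = 1.1e-14). Mrps26, a small subunit protein specific to mitochondria (chromosome 2, 130563742 to 130568695, plus strand), had 53.5, 53 and 57.3 RPKM in WT glutamine-free, against 20.5, 22.4 and 21.2 RPKM in WT complete libraries, a change of 1.31 ± 0.037 (SE, limma adjusted p = 8.0e-13). Its start region above holds 2 overlapping NRF1 matches and 1 ETS match. Mrps18b (chromosome 17, 35910379 to 35916389, minus strand), 1 of 3 paralogs of a bacterial small subunit protein, had 56.7, 55.4 and 58.4 RPKM in WT glutamine-free, against 24.9, 24.4 and 26.3 RPKM in WT complete libraries, 1.14 ± 0.027 (SE, limma adjusted p = 1.1e-13). Its exons lie under a gene on the other strand over 30.5% of their length, and reads of the 2 genes may not have been told apart there. Mrps22, specific to mitochondria and mutated in inherited human mitochondrial disease (chromosome 9, 98588730 to 98601660, minus strand), had 39.2, 38.2 and 37 RPKM in WT glutamine-free, against 17.9, 16.9 and 17.5 RPKM in WT complete libraries, 1.09 ± 0.034 (SE, limma adjusted p = 2.0e-12). Mrpl3, which sits near the peptidyl transferase centre (chromosome 9, 105053239 to 105079888, plus strand), had 44.1, 44.9 and 44.4 RPKM in WT glutamine-free, against 20.6, 21.9 and 21.4 RPKM in WT complete libraries, 1.03 ± 0.024 (SE, limma adjusted p = 1.0e-13).

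The 19 genes that fell in WT changed less. Mrpl14 (chromosome 17, 45686322 to 45698495, plus strand), at the face where the subunits join, had 27.1, 28.9 and 28.6 RPKM in WT glutamine-free libraries, against 51.7, 47.1 and 47.6 RPKM in WT complete libraries, a log2 change of -0.77 ± 0.047 (SE, limma adjusted p = 2.6e-09). Mrps36 (chromosome 13, 100735955 to 100744659, minus strand) had 18.6, 20.4 and 18.8 RPKM in WT glutamine-free, against 31.1, 33.2 and 28.7 RPKM in WT complete libraries, -0.66 ± 0.046 (SE, limma adjusted p = 1.2e-08). Despite its symbol, its protein is now known as a part of the 2-oxoglutarate dehydrogenase complex, which oxidises the carbon that glutamine brings into the citric acid cycle, and it is absent from mitoribosome structures. It has 3 annotated pseudogenes that could share reads. Mrpl10, the base of the L7/L12 stalk, had 16.2, 17.9 and 17.8 RPKM in WT glutamine-free, against 26.3, 27 and 24.8 RPKM in WT complete libraries, -0.56 ± 0.036 (SE, limma adjusted p = 5.0e-09). Mrps16, with a bacterial counterpart, changed by -0.53 ± 0.029 (SE, limma adjusted p = 8.2e-10), at 38.2 ± 0.778 RPKM in WT glutamine-free, against 55.5 ± 2.08 RPKM in WT complete libraries. Mrpl52, at the central protuberance, changed by -0.47 ± 0.038 (SE, limma adjusted p = 5.9e-08), at 43.6 ± 2.34 RPKM in WT glutamine-free, against 60.8 ± 2.48 RPKM in WT complete libraries.

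**Figure D2:**
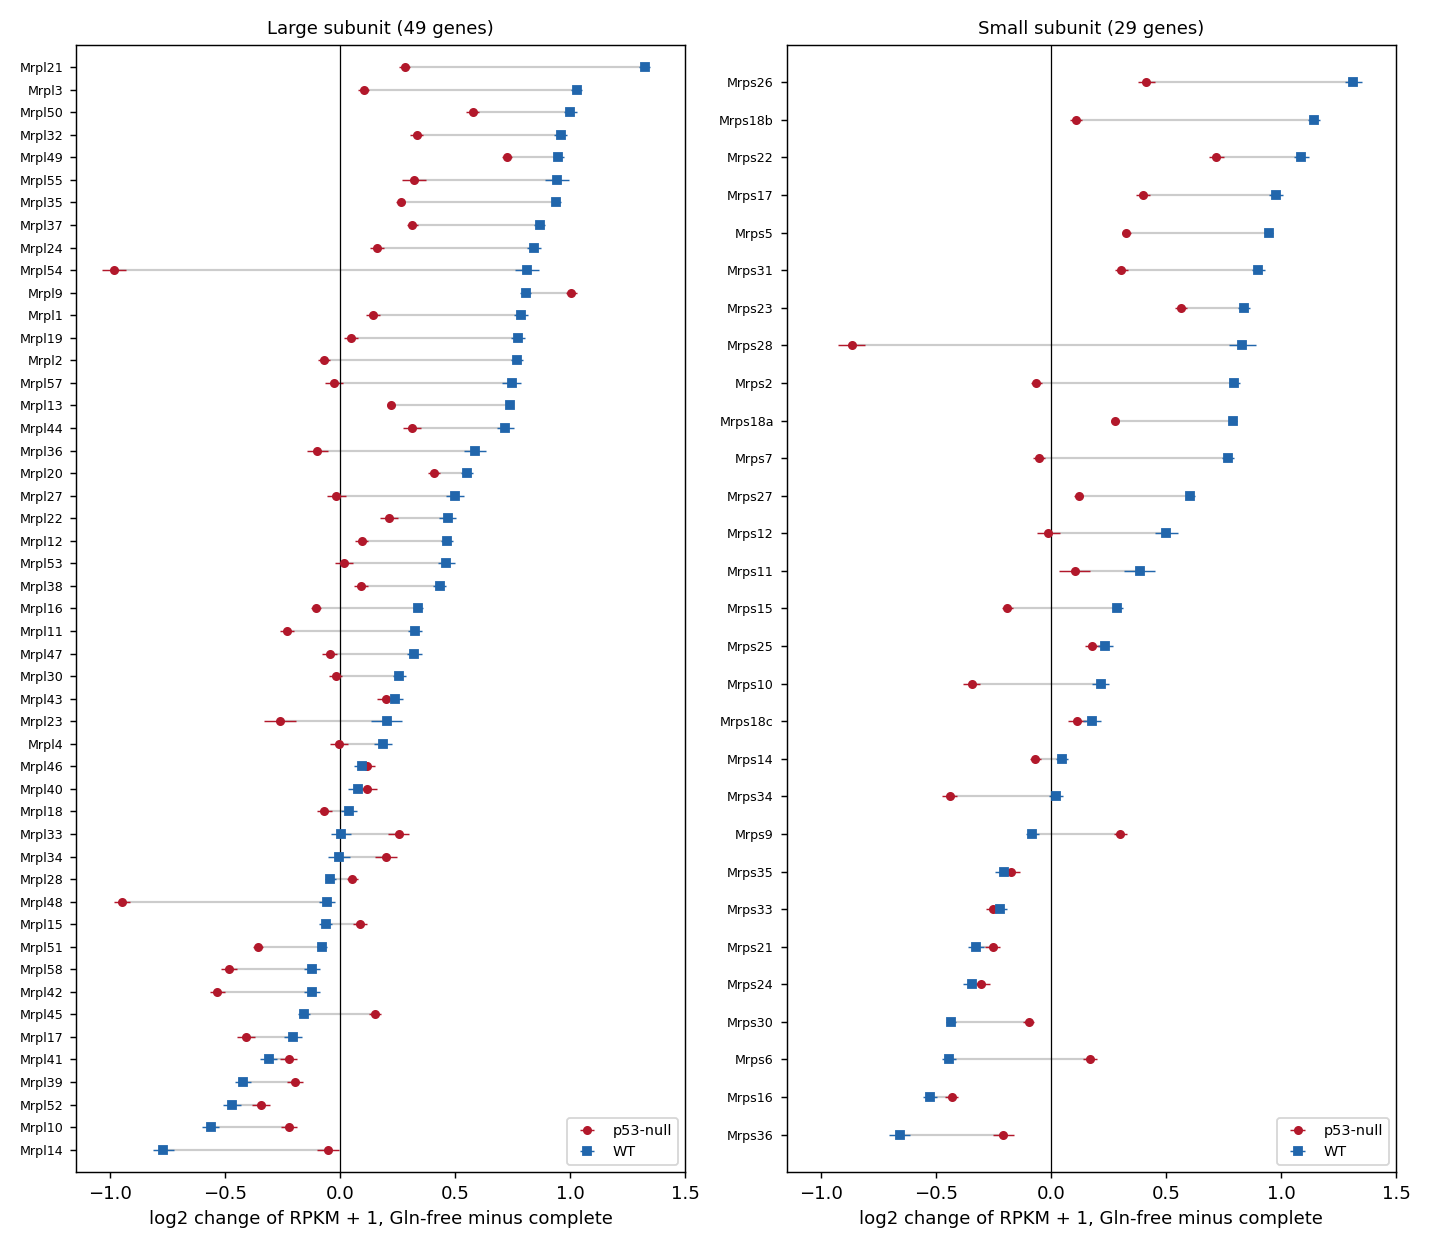
Log2 change of RPKM + 1, glutamine-free minus complete, for each of the 49 large (left) and 29 small subunit genes (right) in p53-null (circles) and WT cells (squares); bars are SE and grey lines join the values of a gene. WT squares reach 1.32 for Mrpl21, p53-null circles exceed 0.75 for Mrpl9 alone, and Mrpl54 and Mrps28 lie on opposite sides of 0 in the lines.

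In p53-null cells the responses were smaller and split. Of the 78 genes, 37 were higher in glutamine-free medium, against 50.0% of all tested entries, 27 were lower, against 32.0%, and 14 were not called. In the large subunit 24 rose and 14 fell (median log2 change 0.053), and in the small subunit 13 rose and 13 fell (median -0.012), beside a median of 0.083 over all tested entries. The split depended on how libraries were scaled. After quantile normalization 24 rose and 38 fell, beside 44.1% and 37.1% of all tested entries. After median centring 23 rose and 39 fell, beside 39.5% and 43.5%. The medians over the 78 were then -0.055 and -0.056. Median centring moved the median of all tested entries by -0.11. It shifts all genes of a library alike, so relative to that median the members stayed at -0.034 by construction. After quantile normalization, which is not bound in this way, the members stood at -0.087 relative to the median of all tested entries. At least 1.5-fold, 3 rose, or 3.85% against 9.11% of all tested entries, and 3 fell, or 3.85% against 7.08%.

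Mrpl9, with a bacterial counterpart (chromosome 3, 94443318 to 94451130, plus strand), had 48.5, 50.6 and 49 RPKM in p53-null glutamine-free libraries, against 24.3, 24 and 24.1 RPKM in p53-null complete libraries. That was a log2 change of 1.004 ± 0.025 (SE, limma adjusted p = 1.5e-12), the largest rise of a member in this line. Mrpl49, specific to mitochondria (chromosome 19, 6053622 to 6057785, minus strand), had 33.2, 33.2 and 33.4 RPKM in p53-null glutamine-free, against 19.3, 20.6 and 19.3 RPKM in p53-null complete libraries, 0.73 ± 0.022 (SE, limma adjusted p = 9.2e-12). Mrps22 had 33.7, 34.2 and 36.5 RPKM in p53-null glutamine-free, against 20.7, 20.03 and 21.5 RPKM in p53-null complete libraries, 0.72 ± 0.034 (SE, limma adjusted p = 4.3e-10). These 3 genes were also called higher in WT. Mrpl50, specific to mitochondria, changed by 0.58 ± 0.028 (SE, limma adjusted p = 6.8e-10), at 21.9 ± 0.672 RPKM in p53-null glutamine-free, against 14.4 ± 0.0242 RPKM in p53-null complete libraries. Mrps23, specific to mitochondria, changed by 0.56 ± 0.025 (SE, limma adjusted p = 3.0e-10), at 27.7 ± 0.0436 RPKM in p53-null glutamine-free, against 18.4 ± 0.466 RPKM in p53-null complete libraries.

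Mrpl54, a mitochondria-specific protein near the stalk base (chromosome 10, 81264713 to 81266934, minus strand), had 14.6, 15.1 and 16.7 RPKM in p53-null glutamine-free libraries, against 32.1, 32.7 and 29.8 RPKM in p53-null complete libraries, a log2 change of -0.99 ± 0.052 (SE, limma adjusted p = 1.2e-09). Mrpl48, a central protuberance protein (chromosome 7, 100545751 to 100608301, minus strand, 1 annotated pseudogene), had 4.74, 4.76 and 4.88 RPKM in p53-null glutamine-free, against 10.4, 10.5 and 9.63 RPKM in p53-null complete libraries, -0.95 ± 0.034 (SE, limma adjusted p = 3.8e-11). Mrps28, which counts as the counterpart of bacterial S1 (chromosome 3, 8802146 to 8923918, minus strand), had 7.88, 9.32 and 8.97 RPKM in p53-null glutamine-free, against 16.6, 16.6 and 16.9 RPKM in p53-null complete libraries, -0.87 ± 0.058 (SE, limma adjusted p = 1.5e-08). In these 3 genes the glutamine-free mean was 0.490, 0.470 and 0.522 times the complete mean. Mrpl42, specific to mitochondria, changed by -0.54 ± 0.033 (SE, limma adjusted p = 6.9e-09), at 40.9 ± 1.78 RPKM in p53-null glutamine-free, against 59.6 ± 0.549 RPKM in p53-null complete libraries. Mrpl58, also called Ict1, a peptidyl-tRNA hydrolase that frees stalled chains, changed by -0.49 ± 0.035 (SE, limma adjusted p = 3.0e-08), at 19.3 ± 0.453 RPKM in p53-null glutamine-free, against 27.4 ± 0.564 RPKM in p53-null complete libraries.

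Set side by side, 30 genes were called higher in both lines (38.5%, against 34.4% of all tested entries) and 15 lower in both (19.2%, against 23.0%). Another 9 were higher in WT and lower in p53-null cells (11.5%, against 5.92%): Mrpl2, Mrpl11, Mrpl16, Mrpl23, Mrpl54, Mrps2, Mrps10, Mrps15 and Mrps28. The reverse, lower in WT and higher in p53-null cells, was found for Mrpl45, Mrps6 and Mrps9 (3.85%, against 11.6%). The absolute change was larger in WT for 57 of the 78 genes, and for 8190 of all 11461 tested entries, a similar share. Its median size over the 78 was 0.21 in p53-null and 0.46 in WT cells, and over all tested entries 0.27 and 0.51. Across the 78 genes the 2 responses correlated at r = 0.50, and across all 11461 entries at r = 0.57, a description only, as genes move together.

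The difference of the responses, p53-null minus WT, was tested for each gene. It was above 0 for 15 genes, against 46.4% of all tested entries, below 0 for 52, against 38.4%, and not called for 11. The median difference was -0.37 in each subunit, with 10 large subunit genes above 0 and 34 below, and 5 small subunit genes above and 18 below, beside a median of 0.062 over all tested entries. Differences of at least 1.5-fold were found above 0 for 2 genes, or 2.56% against 21.6% of all tested entries, and below 0 for 20, or 25.6% against 14.5%. At least 2-fold, 0 were above 0, against 9.98%, and 4 below, or 5.13% against 5.58%. Mrpl54 differed most, at -1.80 ± 0.073 (SE, limma adjusted p = 8.3e-11). It had 38.5, 42.6 and 42.7 RPKM in WT glutamine-free, against 23, 23.8 and 22.3 RPKM in WT complete libraries, so the glutamine-free libraries were the higher ones in WT and the lower ones in p53-null cells. Mrps28 followed at -1.70 ± 0.083 (SE, limma adjusted p = 5.0e-10), with 20.3, 19.3 and 21.8 RPKM in WT glutamine-free, against 11, 10.3 and 11.9 RPKM in WT complete libraries. Mrpl21 differed by -1.04 ± 0.034 (SE, limma adjusted p = 1.1e-11) and had 29.8, 30.8 and 31.8 RPKM in p53-null glutamine-free, against 24.8, 25.8 and 24.8 RPKM in p53-null complete libraries. Mrps18b differed by -1.04 ± 0.038 (SE, limma adjusted p = 2.9e-11), with 75.2, 73.7 and 72.3 RPKM in p53-null glutamine-free, against 69.4, 68.1 and 67.5 RPKM in p53-null complete libraries. The change of these last 2 genes had the same sign in both lines and was smaller in the p53-null one, where they started higher. Mrpl3 differed by -0.93 ± 0.034 (SE, limma adjusted p = 2.8e-11).

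On the other side, Mrpl14 had 40.4, 43.9 and 39.99 RPKM in p53-null glutamine-free, against 40.4, 44.6 and 44.1 RPKM in p53-null complete libraries, which overlapped and were not called (limma adjusted p = 0.31). Its difference from the WT response was 0.72 ± 0.066 (SE, limma adjusted p = 3.3e-07). Mrps6, with a bacterial counterpart, differed by 0.61 ± 0.044 (SE, limma adjusted p = 2.5e-08), at 34.6 ± 1.62 RPKM in p53-null glutamine-free, 30.7 ± 0.899 in p53-null complete, 35.6 ± 0.628 in WT glutamine-free and 48.8 ± 1.09 in WT complete libraries. Mrps36 differed by 0.45 ± 0.065 (SE, limma adjusted p = 2.7e-05), Mrps9 by 0.38 ± 0.040 (SE, limma adjusted p = 1.2e-06) and Mrpl10 by 0.34 ± 0.051 (SE, limma adjusted p = 4.0e-05). Mrpl9, the leading gene in p53-null cells, had 46.2, 49.8 and 48.9 RPKM in WT glutamine-free, against 27.3, 26.9 and 27.4 RPKM in WT complete libraries, and its difference was 0.20 ± 0.035 (SE, limma adjusted p = 1.7e-04).

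**Figure D3:**
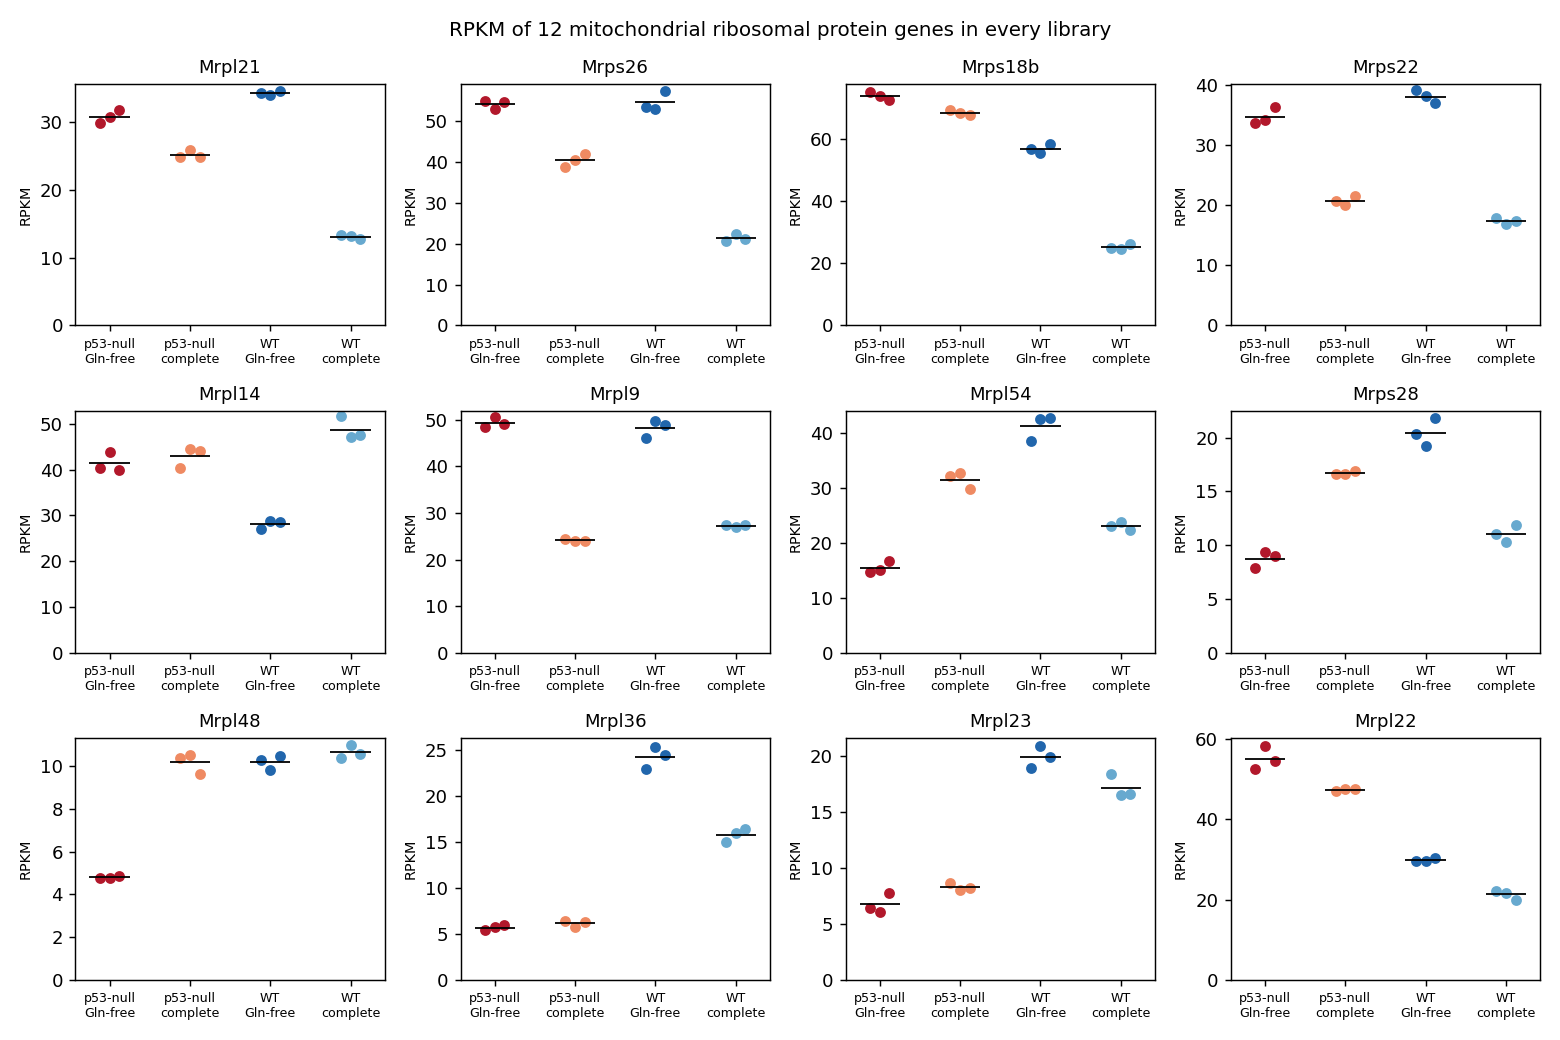
RPKM of 12 genes in each library, by group from p53-null glutamine-free to WT complete; points are libraries and lines are means of 3, on axes from 0. Mrpl54 and Mrps28 are lowest in p53-null glutamine-free and highest in WT glutamine-free libraries, Mrpl48 averages 4.79 RPKM in the first group and at least 10.19 RPKM in the others, and Mrpl36 and Mrpl23 are lower in each p53-null group than in WT of the same medium.

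In complete medium most genes were higher in the p53-null line than in WT. Of the 78, 48 were higher, against 48.4% of all tested entries, 24 were lower, against 42.5%, and 6 were not called. The counts were 29 higher and 15 lower in the large subunit (median log2 difference 0.24) and 19 and 9 in the small subunit (median 0.29), beside 0.053 over all tested entries. At least 1.5-fold, 17 were higher, or 21.8% against 21.7% of all tested entries, and 7 lower, or 8.97% against 20.6%. Mrps18b led with 69.4, 68.1 and 67.5 RPKM in p53-null, against 24.9, 24.4 and 26.3 RPKM in WT complete libraries, a log2 difference of 1.41 ± 0.027 (SE, limma adjusted p = 1.6e-14). Mrps2, with a bacterial counterpart (chromosome 2, 28468066 to 28471178, plus strand), had 29.2, 28.7 and 29.6 RPKM in p53-null complete, against 12.3, 12.2 and 12.2 RPKM in WT complete libraries, 1.19 ± 0.026 (SE, limma adjusted p = 5.5e-14). Mrps18a (chromosome 17, 46110986 to 46128910, plus strand) had 63.6, 63.3 and 64 RPKM in p53-null complete, against 27.4, 28.1 and 28.5 RPKM in WT complete libraries, 1.16 ± 0.017 (SE, limma adjusted p = 1.6e-15). Each of these p53-null groups was at least 2.27 times its WT group. Mrps5, which lines the message entry of the small subunit, differed by 1.12 ± 0.021 (SE, limma adjusted p = 1.2e-14), at 45.9 ± 0.875 RPKM in p53-null complete, against 20.5 ± 0.291 RPKM in WT complete libraries. Mrpl22, at the exit tunnel, differed by 1.12 ± 0.038 (SE, limma adjusted p = 5.8e-12), at 47.4 ± 0.254 RPKM in p53-null complete, against 21.3 ± 1.14 RPKM in WT complete libraries.

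The lower genes were led by Mrpl36, a small zinc-binding protein with a bacterial counterpart (chromosome 13, 73328513 to 73332178, plus strand). It had 6.43, 5.75 and 6.27 RPKM in p53-null complete, against 15, 16 and 16.3 RPKM in WT complete libraries, a log2 difference of -1.23 ± 0.048 (SE, limma adjusted p = 2.3e-11). Mrpl23, at the exit tunnel (chromosome 7, 142532686 to 142540747, plus strand, 1 annotated pseudogene), had 8.65, 7.99 and 8.18 RPKM in p53-null complete, against 18.4, 16.5 and 16.6 RPKM in WT complete libraries, -0.97 ± 0.068 (SE, limma adjusted p = 1.2e-08). The p53-null means were 0.390 and 0.482 times those of WT. Mrpl30, with a bacterial counterpart, differed by -0.73 ± 0.027 (SE, limma adjusted p = 1.5e-11), at 50.8 ± 1.72 RPKM in p53-null complete, against 84.9 ± 0.345 RPKM in WT complete libraries. Mrps6 differed by -0.65 ± 0.031 (SE, limma adjusted p = 2.0e-10) and Mrpl34, with a bacterial counterpart, by -0.63 ± 0.049 (SE, limma adjusted p = 3.8e-08).

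In glutamine-free medium the balance between the lines was different, with 31 genes higher in p53-null cells, against 51.4% of all tested entries, 42 lower, against 40.0%, and 5 not called. The large subunit had 18 higher and 30 lower (median log2 difference -0.22) and the small subunit 13 and 12 (median -0.010), beside 0.10 over all tested entries. When libraries were rescaled to one sum, 35 were higher and 33 lower, beside 58.1% and 33.3% of all tested entries under that scaling. The median over the 78 was then 0.026 in place of -0.12. That scaling moved the median of all tested entries by 0.13, and relative to it the members stood at -0.21, against -0.22 with the deposited values. Such a rescaling shifts nearly all genes of a library alike, so little change was possible. After quantile normalization the members stood at -0.15 relative to the median of all tested entries. At least 1.5-fold, 7 were higher, or 8.97% against 24.2% of all tested entries, and 14 lower, or 17.9% against 17.2%.

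Mrpl36 had the largest difference, with 5.37, 5.69 and 5.95 RPKM in p53-null glutamine-free, against 22.9, 25.3 and 24.5 RPKM in WT glutamine-free libraries, -1.92 ± 0.048 (SE, limma adjusted p = 2.6e-13). Mrpl23 had 6.45, 6.09 and 7.74 RPKM in p53-null glutamine-free, against 19, 20.9 and 19.9 RPKM in WT glutamine-free libraries, -1.43 ± 0.068 (SE, limma adjusted p = 2.0e-10). Mrpl54 and Mrps28, higher in p53-null cells in complete medium, were lower in glutamine-free medium, by log2 differences of -1.36 ± 0.052 (SE, limma adjusted p = 1.9e-11) and -1.14 ± 0.058 (SE, limma adjusted p = 4.4e-10). Mrpl57, also called Mrp63 and specific to mitochondria, had 6.74, 7.06 and 7.17 RPKM in p53-null glutamine-free, against 14.2, 15.7 and 15.6 RPKM in WT glutamine-free libraries, -1.02 ± 0.041 (SE, limma adjusted p = 3.4e-11). Among the higher genes, Mrps18c, the third of the Mrps18 paralogs, had 52.8, 57.7 and 56.6 RPKM in p53-null glutamine-free, against 28.5, 30.4 and 28.9 RPKM in WT glutamine-free libraries, 0.90 ± 0.040 (SE, limma adjusted p = 8.7e-11). Mrpl41, specific to mitochondria, had 5.93, 6.21 and 6.04 RPKM in p53-null glutamine-free, against 2.75, 2.78 and 2.9998 RPKM in WT glutamine-free libraries, 0.88 ± 0.037 (SE, limma adjusted p = 6.2e-11). Mrpl22 differed by 0.87 ± 0.038 (SE, limma adjusted p = 9.3e-11), Mrpl10 by 0.79 ± 0.036 (SE, limma adjusted p = 1.4e-10) and Mrpl46, at the central protuberance, by 0.79 ± 0.035 (SE, limma adjusted p = 9.0e-11).

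Over both media, 28 genes were higher in p53-null cells each time (35.9%, against 35.8% of all tested entries) and 20 lower each time (25.6%, against 27.8%), both close to the share over all entries. Another 17 were higher in complete and lower in glutamine-free medium (21.8%, against 9.13% of all tested entries), among them Mrpl3, Mrpl21, Mrpl54, Mrps22 and Mrps28. The reverse held for Mrpl14 and Mrps36 (2.56%, against 11.1%). The differences in the 2 media correlated at r = 0.66 across the 78 genes and at r = 0.69 across all tested entries.

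**Figure D4:**
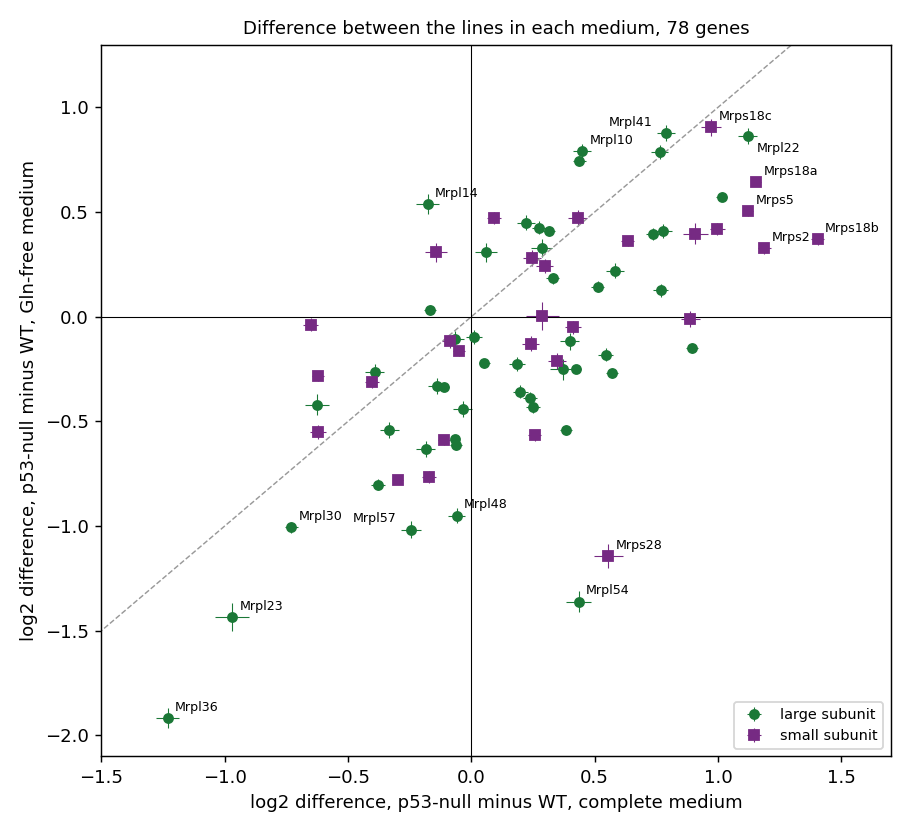
Log2 difference of RPKM + 1, p53-null minus WT, in complete (x axis) and glutamine-free medium (y axis) for the 49 large (circles) and 29 small subunit genes (squares); bars are SE and the dashed line marks equal differences. Most points lie below the dashed line, Mrpl36 is lowest in both media at -1.23 and -1.92, and Mrpl54 and Mrps28 are above 0 on the x axis and below -1 on the y axis.

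The counts by position, class and list that follow stand beside the same background on withdrawal: 50.0% of all tested entries higher and 32.0% lower in p53-null cells, and 46.0% and 44.0% in WT. By position in the ribosome, the 5 genes of the L7/L12 stalk and its base had 1 higher and 3 lower in p53-null cells on withdrawal (median -0.22), and 4 higher and 1 lower in WT (median 0.46). The stalk recruits translation factors. Mrpl11 changed by -0.23 ± 0.030 in p53-null and 0.33 ± 0.030 in WT cells, Mrpl12 by 0.092 ± 0.026 and 0.46 ± 0.026, and Mrpl10 fell in both lines. Of 8 genes at the polypeptide exit tunnel, 4 rose and 3 fell in p53-null cells (median 0.051), and 5 rose and 3 fell in WT (median 0.26). Mrpl44 and Mrpl24 rose in both lines, and Mrpl17 and Mrpl39 fell in both. Mrpl45, which anchors the ribosome to the inner membrane, changed by 0.15 ± 0.026 in p53-null and -0.16 ± 0.026 in WT cells. Of 7 genes at the central protuberance, which touches the small subunit, 3 rose and 3 fell in p53-null cells (median -0.069) and 2 rose and 2 fell in WT (median 0.037), where Mrpl38 had the largest rise at 0.43 ± 0.029. Mrps12, the counterpart of bacterial S12 at the decoding site, rose in WT by 0.50 ± 0.050 and had a change of -0.012 ± 0.050 in p53-null cells, which was not called.

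Among large subunit genes, those with a bacterial counterpart had 15 higher and 6 lower of 30 in p53-null (median 0.069) and 22 higher and 3 lower in WT cells (median 0.46). In p53-null cells 15 of 30 is the same share as over all tested entries. Those specific to mitochondria had 9 higher and 8 lower of 19 in p53-null (median 0.016) and 10 higher and 7 lower in WT cells (median 0.093). Mrpl55 stands in the first of these lists although its protein is classed as specific to mitochondria, and with it moved the WT medians were 0.46 and 0.16. In the small subunit, genes with a counterpart had 7 higher and 8 lower of 18 in p53-null (median -0.032) and 12 higher and 5 lower in WT cells (median 0.34). The specific ones had 6 higher and 5 lower of 11 in p53-null (median 0.12) and 6 higher and 4 lower in WT cells (median 0.24). The order of these medians in p53-null cells was the reverse of that in WT. The difference between these classes was not tested.

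The 3 Mrps18 genes are paralogs of a single bacterial protein, and their products sit in different places: Mrps18b and Mrps18c in the small subunit and Mrps18a in the large one. Mrps18a had 76.6, 77.4 and 78 RPKM in p53-null glutamine-free, 63.6, 63.3 and 64 in p53-null complete, 49, 50.02 and 48.4 in WT glutamine-free and 27.4, 28.1 and 28.5 RPKM in WT complete libraries. Mrps18c had 52.8, 57.7 and 56.6 RPKM in p53-null glutamine-free, 50.6, 51.2 and 52.7 in p53-null complete, 28.5, 30.4 and 28.9 in WT glutamine-free and 26.3, 24.2 and 26.8 in WT complete libraries. All 3 rose on withdrawal in WT, by 0.79 ± 0.017 for Mrps18a, 1.14 ± 0.027 for Mrps18b and 0.18 ± 0.040 for Mrps18c. All 3 were higher in the p53-null line in both media. For Mrps18c the difference of the responses was -0.068 ± 0.056 (SE, limma adjusted p = 0.27), which was not called, and for the other two it was called below 0. Mrps30, whose protein is placed in the large subunit in structures despite its symbol, had 20.9, 21.5 and 20.9 RPKM in p53-null glutamine-free, 22.6, 22.8 and 22.6 in p53-null complete, 24.9, 26.8 and 26.2 in WT glutamine-free and 35.4, 35.2 and 35.7 in WT complete libraries, and its response differed by 0.34 ± 0.033 (SE, limma adjusted p = 6.0e-07). With Mrps18a and Mrps30 moved to the large subunit and Mrps36 left out, the ratio of summed RPKM was 1.98 in p53-null glutamine-free, 1.93 in p53-null complete, 2.15 in WT glutamine-free and 2.10 in WT complete libraries, with the same order of the lines.

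Genes that act on the mitoribosome were counted beside its own proteins, and the shares over all tested entries are again 50.0% higher and 32.0% lower in p53-null cells, and 46.0% and 44.0% in WT. Of 27 genes for its assembly and the modification of its RNA, 19 rose and 4 fell on withdrawal in p53-null cells (median 0.31), and 20 rose and 3 fell in WT (median 0.41). Mterf3, which acts on mitochondrial transcription and ribosome assembly, was at 37.8 ± 1.33 RPKM in WT glutamine-free, against 11.4 ± 0.504 RPKM in WT complete libraries, 1.65 ± 0.039 (SE, limma adjusted p = 1.1e-13). Rpusd4, a pseudouridine synthase for mitochondrial 16S rRNA, was at 14.7 ± 0.169 RPKM in p53-null glutamine-free, against 7.91 ± 0.253 RPKM in p53-null complete libraries, 0.82 ± 0.034 (SE, limma adjusted p = 1.3e-10). Of 15 genes for mitochondrial transcription and RNA processing, 12 rose and 2 fell in p53-null (median 0.31), and 13 rose and 2 fell in WT cells (median 0.63). Tfb2m, the initiation factor that opens the mitochondrial promoter, was at 20.8 ± 0.454 RPKM in WT glutamine-free, against 5.20 ± 0.169 RPKM in WT complete libraries, 1.81 ± 0.027 (SE, limma adjusted p = 1.8e-15). In p53-null cells it was at 19.9 ± 0.513 RPKM without glutamine, against 11.2 ± 0.244 RPKM with it, 0.77 ± 0.027 (SE, limma adjusted p = 3.2e-11). Trmt10c, a subunit of mitochondrial RNase P, and Twnk, the mitochondrial DNA helicase, rose in WT by 1.78 ± 0.029 (SE, limma adjusted p = 3.2e-15) and 1.78 ± 0.024 (SE, limma adjusted p = 6.7e-16).

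Mitochondrial translation factors had 6 higher and 4 lower of 12 in p53-null (median 0.090), and 9 higher and 1 lower in WT cells (median 0.18). The lower one in WT was Tufm, the elongation factor that brings in transfer RNA, at 21 ± 0.440 RPKM without glutamine, against 28.8 ± 0.420 RPKM with it, -0.44 ± 0.019 (SE, limma adjusted p = 7.2e-11). Of 5 mitoribosomal proteins with other symbols (Dap3, Ptcd3, Chchd1, Aurkaip1 and Gadd45gip1), 2 rose and 3 fell in p53-null cells, and 4 rose and 1 fell in WT. Ptcd3, a small subunit protein, rose in WT to 55 ± 0.552 RPKM, against 34.9 ± 0.337 RPKM in complete medium, 0.64 ± 0.015 (SE, limma adjusted p = 1.6e-13). Of 82 tested cytosolic ribosomal protein genes, 7 rose and 63 fell in p53-null cells (median -0.22), and 41 rose and 30 fell in WT (median 0.065). Of 78 tested nuclear genes for respiratory chain and ATP synthase subunits, the complexes that mitochondrial translation serves, 8 rose and 49 fell in p53-null cells (median -0.14), and 19 rose and 44 fell in WT (median -0.13). The difference between these lists and the mitoribosomal genes was not tested.

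**Figure D5:**
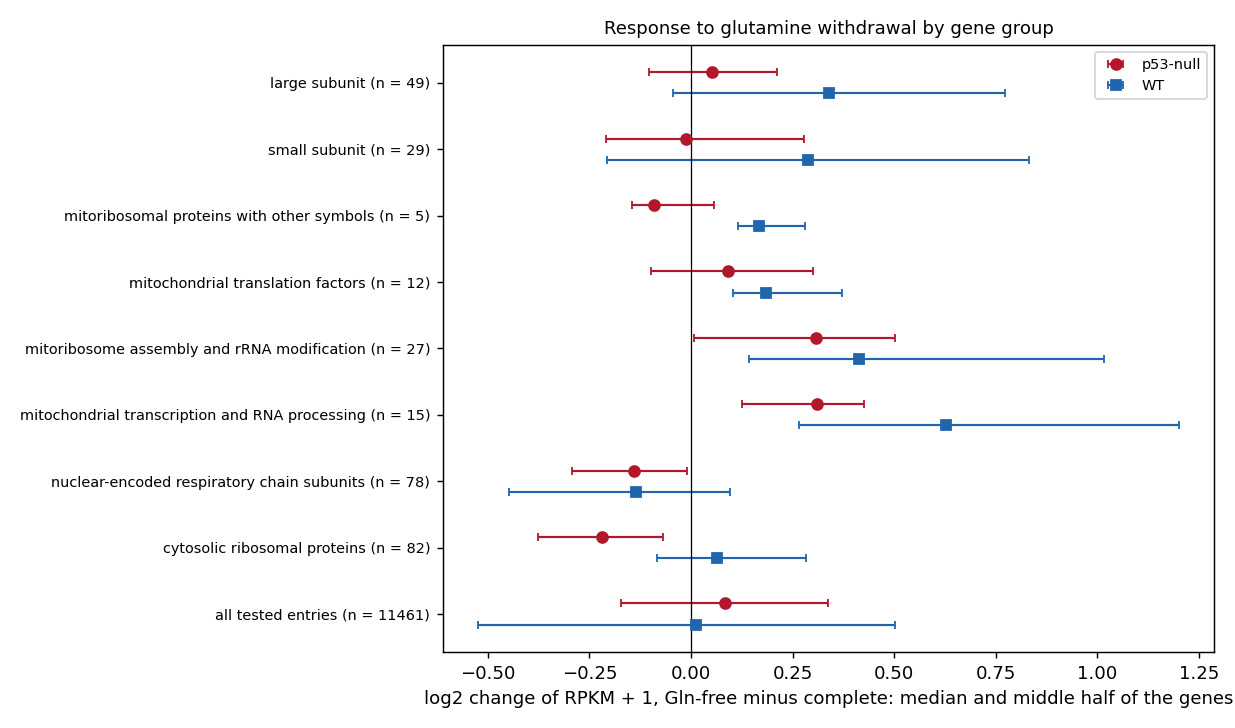
Log2 change of RPKM + 1, glutamine-free minus complete, in p53-null (circles) and WT cells (squares) for both subunits, 6 other gene groups and all 11461 tested entries; points are medians and bars run from the lower to the upper quartile of the genes. In WT the large subunit (0.34) and small subunit (0.29) lie above the median of all tested entries (0.011), and cytosolic ribosomal proteins lie below 0 in p53-null cells (-0.22).

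The 78 genes are spread over 17 chromosomes. A protein-coding gene on the other strand starts within 1000 bases of the start of 19 of them (24.4%), against 11.9% of 10754 tested protein-coding genes. These distances use GENCODE starts. In 18 of these pairs both genes were tested, and the same counts were made over 554 such pairs of tested genes. On withdrawal in p53-null cells 8 of the 18 pairs were called in the same direction (44.4%, against 41.9% of the 554) and 3 in opposite ones (16.7%, against 28.0%). In WT cells it was 8 (44.4%, against 48.0%) and 6 (33.3%, against 33.8%). Between the lines, 13 went the same way in complete medium (72.2%, against 57.9%) and 3 opposite (16.7%, against 23.1%), and 12 (66.7%, against 60.8%) and 3 (16.7%, against 23.6%) in glutamine-free medium. Apba3, which starts 26 bases from Mrpl54, changed by -0.32 ± 0.035 in p53-null and 0.75 ± 0.035 in WT cells, the same signs as Mrpl54. Ndufs6, a complex I subunit whose start overlaps the outermost GENCODE start of Mrpl36, which lies upstream of the RefSeq start of the printed stretch, was lower in p53-null cells, with log2 differences of -0.35 ± 0.037 in complete and -1.04 ± 0.037 in glutamine-free medium. Ppp1r10, 45 bases from Mrps18b, rose by 0.77 ± 0.023 in p53-null and 1.22 ± 0.023 in WT cells. Psma2, a proteasome subunit 75 bases from Mrpl32, fell by 0.11 ± 0.017 and 0.25 ± 0.017 on the log2 scale where Mrpl32 rose by 0.33 ± 0.028 and 0.96 ± 0.028. In 28 genes some exon bases lie under a gene of the other strand, over 25% of them in Mrpl19, Mrpl24, Mrpl43, Mrps18b, Mrps25 and Mrps34, and Mrpl53 shares 88.0% of its exon bases with a gene on its own strand, so the values of these genes are uncertain.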

How the data were processed

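RNA-seq of 12 libraries of 3T3 mouse embryonic fibroblasts was deposited as a table of RPKM per gene. Per the submitters' processing notes, the authors used CASAVA 1.8, HISAT2 2.0.4, Partek and genome build mm10. How reads were assigned to genes is not stated, and read counts were not used in the tests. RPKM fixes each library's scale, so that a few abundant genes can shift all others.

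Entries with at least 1 RPKM in at least 3 libraries were tested on log2(RPKM + 1), computed here from the deposited RPKM values, with limma 3.58.1 (R 4.3.3), a mean-variance trend and all 4 groups in one fit. Benjamini-Hochberg adjustment ran over 11461 entries in each of 5 comparisons. Adding 1 to RPKM understates changes of low genes.

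The genes, lists and comparisons were chosen with earlier results of these data known. Named genes are the 5 largest rises and falls per comparison (called, at least 2 RPKM in the higher group, groups not overlapping), the 3 highest and 3 lowest per subunit, the Mrps18 paralogs, Mrps30, Mrps36 and up to 3 per other list. Members named by role, promoter match or neighbouring gene were chosen after their values were seen. Gene coordinates are from GENCODE M21 and start regions from RefSeq, both on GRCm38.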

Additional observations from a re-analysis of the deposited data

Results flagged for a closer look

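The response to glutamine withdrawal differed between the lines, by limma's test of the difference itself (p53-null minus WT), for 15 genes with a difference above 0 and 52 with a difference below 0. These were 19.2% and 66.7% of the 78, against 46.4% and 38.4% of all tested entries. Above 0 the named genes were Mrpl14 (log2 difference 0.7167), Mrps6 (0.6113), Mrps36 (0.4505), Mrps9 (0.3817) and Mrpl10 (0.3395). Below 0 they were Mrpl54 (-1.797), Mrps28 (-1.699), Mrpl21 (-1.044), Mrps18b (-1.036) and Mrpl3 (-0.926). Of these 10 genes, Mrpl54 and Mrps28 fell in p53-null and rose in WT cells, Mrps6 and Mrps9 rose in p53-null and fell in WT cells, and Mrpl14 was called in WT only. Mrps36 and Mrpl10 fell in both lines, and Mrpl21, Mrps18b and Mrpl3 rose in both.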

How the results depend on the processing

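All 50 named gene changes kept their direction and their call in 990 of 990 repeats over the alternatives listed here: pseudocount 0.1, no filter on low values, no variance trend, only the groups compared, 3 scalings, a replicate block and each library left out. Counts of calls stayed within 1.5 times in 606 repeats and did not in 8. Medians of log2 changes moved by more than the spread between libraries (1 SD) in 24 repeats and by less in 273, and all but 2 of the 24 came from another scaling. On withdrawal in p53-null cells the large subunit median was -0.046 after quantile normalization and -0.053 after median centring, and the small subunit median was 0.012 with libraries rescaled to one sum. Between the lines in glutamine-free medium the small subunit median was 0.14 with that rescaling. Quantile normalization gave 24 genes higher in p53-null cells on withdrawal (large subunit 14 higher, 23 lower). Under that scaling 44.1% of all tested entries were higher and 37.1% lower. Median centring gave 23 higher (large subunit 14 higher, 24 lower), beside 39.5% and 43.5% of all tested entries. For the difference of responses, median centring gave 6 large subunit genes above 0, beside 40.3% of all tested entries. Subunits by structure gave 3 small subunit genes above 0, beside 46.4%. The cause was not tested. The ratio of medians was 0.9481, 0.8787, 0.9751 and 0.9774, and the ratio of sums by structure 1.975, 1.925, 2.146 and 2.103, in p53-null glutamine-free, p53-null complete, WT glutamine-free and WT complete libraries. Mrpl55 was moved between role lists after seeing the data.

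With a library left out, genes called higher numbered 49 to 51 and lower 18 to 20 on withdrawal in WT, 34 to 38 and 25 to 29 in p53-null cells, 47 to 48 and 22 to 24 between lines in complete medium, 31 and 40 to 42 in glutamine-free medium, and 13 to 15 and 52 to 53 for the difference. The small subunit median in p53-null cells ran from -0.027 to 0.0025, so its sign is not fixed. Replicate numbers did not pair the libraries: deviations from group means correlated at -0.106 to 0.088 over 18 same-numbered pairs, against -0.112 to 0.111 over 36 others. With the replicate block, the counts higher and lower were 50 and 21 in WT, 38 and 27 in p53-null cells, 48 and 24 in complete medium, 31 and 42 in glutamine-free medium, and 14 and 53 for the difference. Reads per gene are not given and library depth is only roughly estimated, which limits what low genes such as Mrpl17 can show.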
